A study of Mus musculus with 20 samples.

Results

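The livers of 4 groups of mice were compared for 10 genes of hepcidin production, BMP signalling and iron handling: Hamp, Hamp2, Bmp6, Bmp2, Id1, Smad6, Tfrc, Tfr2, Slc40a1 and Fth1. They were taken by gene symbol from a table of 38924 genes, and all 10 were among the 14524 genes with enough expression to be tested. The mice were males on the C57/BL6 background (C57BL/6J in the study's methods), 5 weeks old at purchase, and were fed control chow or CDAHFD (a high fat diet without choline, its protein given as L-amino acids, used as a feeding model of steatohepatitis) for 12 weeks. Each group has 5 libraries of liver poly(A) RNA: wild type on control chow (NDWT), TSP-1 knockout on control chow (NDKO), wild type on CDAHFD (HFWT) and TSP-1 knockout on CDAHFD (HFKO), the knockout being called TSP-1 null in the plots. The knockout carries a germline deletion of thrombospondin-1 (TSP-1, gene Thbs1), an extracellular matrix protein, in every tissue, and the liver of these mice is a mixture of cell types. The 5 mice of a group were picked at random from a larger cohort, 1 library each. Depth was 15641549 to 23276326 fragments a library.

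Hepcidin, encoded in the mouse by Hamp, is the peptide hormone by which hepatocytes lower plasma iron: it binds ferroportin (Slc40a1), the cellular iron exporter, and sends it for breakdown. Its transcription rises with BMP6 and BMP2 released by sinusoidal endothelial cells, which signal through receptor SMADs in the hepatocyte, and with interleukin 6 through STAT3. Id1 and Smad6 are general BMP-SMAD target genes, transferrin receptor 2 (Tfr2) is a hepatocyte iron sensor, transferrin receptor 1 (Tfrc) takes up iron and ferritin heavy chain (Fth1) stores it.

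The level of Thbs1 did not separate the genotypes as their names would. Thbs1 stood at 0.0580, 0.165, 0.170, 0.268 and 0.326 FPKM (fragments per kilobase of gene, scaled to the depth of the library) in NDWT, and at 0.986 to 1.90 FPKM in NDKO, higher in all 5. On CDAHFD it was 4.62 ± 1.22 FPKM (SD, n = 5) in HFWT and 3.44 ± 0.547 in HFKO. A value summed over the whole gene cannot show whether a deleted part is missing, so it does not check the labels. NDKO and HFKO therefore name the libraries labelled TSP-1 knockout, and every genotype difference below rests on those labels.

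Hamp and its paralog Hamp2 lie side by side on chromosome 7 of GRCm38 (30942371 to 30944017 and 30922372 to 30924181, both on the minus strand). Their promoters are shown because the ratio of the paralogs differed by diet in wild type mice, as given below with its test. The 250 bases before each RefSeq start (GRCm38.p6, minus strand, written 5′ to 3′) are given with 2 motifs in capitals, searched on both strands: GGCGCC, the core of a BMP response element, and TTCNNNGAA, a STAT site. The windows are chr7:30944030-30944279 for Hamp and chr7:30924182-30924431 for Hamp2.
Hamp: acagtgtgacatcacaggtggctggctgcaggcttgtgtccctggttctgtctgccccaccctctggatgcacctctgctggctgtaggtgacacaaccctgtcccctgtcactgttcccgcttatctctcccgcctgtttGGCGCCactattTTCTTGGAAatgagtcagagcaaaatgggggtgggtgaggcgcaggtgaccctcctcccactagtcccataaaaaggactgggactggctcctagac
Hamp2: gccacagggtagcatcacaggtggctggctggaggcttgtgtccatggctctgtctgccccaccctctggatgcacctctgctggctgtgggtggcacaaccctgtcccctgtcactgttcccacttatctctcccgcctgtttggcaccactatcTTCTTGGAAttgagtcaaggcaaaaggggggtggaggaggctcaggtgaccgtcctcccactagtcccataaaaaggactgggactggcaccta

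The promoters were identical at 227 of 247 aligned bases (91.9%). Hamp held GGCGCC at -109 to -104 from its start and TTCTTGGAA at -97 to -89. Hamp2 held the same STAT letters at -94 to -86, but at the place aligned with the BMP motif it differed from Hamp by G4A, with positions counted from 1 at the motif's 5′ end. Of 32851 promoters of this length, 9.59% held GGCGCC, 7.02% held TTCNNNGAA and 0.368% held both. Neither motif was found in the Smad6 window, and no promoter of Id1 was searched. A match is a description of these letters, not a site shown to be used. The transcripts also overlap in sequence: of 380 distinct 31-base stretches in the Hamp transcripts, 128 occur in Hamp2. Hamp was read at 603 to 1727 FPKM in the group means and Hamp2 at 2.88 to 8.08 FPKM, so a small share of fragments set on the wrong paralog would weigh far more on Hamp2.

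Post-transcriptional control of iron genes runs through iron responsive elements, hairpins bound by the iron regulatory proteins when iron is low. They are shown because Tfrc, Fth1 and Slc40a1 share this element. With CDAHFD Tfrc and Fth1 were called higher in both genotypes, and Slc40a1 in neither. A pattern was searched in the GENCODE M21 transcripts (GRCm38): a C, 5 bases, a loop of CAGTG followed by any base but G, and 5 bases able to pair with the 5 before the loop (G with T allowed). It was found in 1.47% of the 13643 tested genes looked up. The loop is in capitals.
Fth1, 5′ UTR, chr19:9982738-9982754, plus strand: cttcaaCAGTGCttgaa
Slc40a1, 5′ UTR, chr1:45925471-45925487, minus strand: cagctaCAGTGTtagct
Tfrc, 3′ UTR, chr16:32631225-32631241, plus strand: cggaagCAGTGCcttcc
Tfrc, 3′ UTR, chr16:32631604-32631620, plus strand: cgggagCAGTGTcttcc
Tfrc, 3′ UTR, chr16:32631669-32631685, plus strand: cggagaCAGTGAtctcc
Tfrc, 3′ UTR, chr16:32631716-32631732, plus strand: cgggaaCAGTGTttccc
Elements in a 5′ UTR act on translation and those in the 3′ UTR of Tfrc on transcript stability, so FPKM can show only the latter. No match was found in the other 7 members.

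Hepcidin transcript fell with CDAHFD in the mice labelled TSP-1 knockout. Hamp stood at 949, 1488, 1613, 2064 and 2520.1 FPKM in NDKO and at 442, 496, 602, 689 and 785 FPKM in HFKO. The groups did not overlap. The fitted log2 fold change (log2FC, on log2(FPKM + 0.1)) was -1.48 (SE 0.30, FDR 2.4e-04), a level 2.78-fold lower. In wild type mice Hamp stood at 681, 812, 1050.3, 1298 and 1861 FPKM on control chow and at 493, 653, 746, 1065 and 1424 FPKM on CDAHFD. These groups overlapped widely. The log2FC was -0.39 (95% interval -1.02 to 0.25, FDR 0.25) and did not pass the test.

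The median transcript rose with the diet in this unit, so Hamp was also read against the rest of the table. The median log2FC of all tested genes was 0.53 with CDAHFD in wild type and 0.50 in TSP-1 knockout mice. Against that shift the Hamp log2FC was -0.92 in wild type and -1.97 in TSP-1 knockout mice. When libraries were rescaled by the median of ratios, which brings the median gene to near 0, Hamp was called lower in wild type too (log2FC -0.95, FDR 0.00998). After quantile normalization the wild type value was 0.08 (FDR 0.85) and the TSP-1 knockout value -0.96 (FDR 0.016). The fall in knockout mice was thus called under all 3 scalings, while the wild type value changed its call under the median of ratios and its sign under quantile normalization.

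Hamp did not differ by genotype beyond its spread. On control chow it was 1727 ± 595 FPKM in NDKO and 1141 ± 467 in NDWT (log2FC 0.62, 95% interval -0.02 to 1.25, FDR 0.20). On CDAHFD it was 603 ± 139 FPKM in HFKO and 876 ± 371 in HFWT (log2FC -0.47, 95% interval -1.11 to 0.16, FDR 0.44). The diet's log2FC differed between genotypes by -1.09 (95% interval -1.98 to -0.19, unadjusted p = 0.020, FDR 0.23), which did not pass the correction over all genes. In order of mean FPKM the groups ran NDKO, NDWT, HFWT and HFKO, and the differences between neighbours in that order did not pass the test.

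Hamp varied widely between mice of 1 group. Its coefficient of variation was 23.1% to 42.3% over the 4 groups, on 2709 to 20390 fragments a library, where that of Tfr2, another hepatocyte transcript, was 3.97% to 7.29%.

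Hamp2, whose product has a less settled part in iron control, rose with CDAHFD in wild type mice. It stood at 1.41, 2.64, 3.05, 3.33 and 3.98 FPKM in NDWT and at 5.29, 5.64, 6.51, 8.14 and 9.84 FPKM in HFWT. Every HFWT library lay above every NDWT library (log2FC 1.304, SE 0.42, FDR 0.0095). In the knockout libraries Hamp2 stood at 4.28, 4.58, 5.84, 8.87 and 16.8 FPKM on control chow and at 3.12, 3.66, 6.22, 8.40 and 19.0 FPKM on CDAHFD, with no difference that passed the test (log2FC -0.11, 95% interval -0.9998 to 0.77, FDR 0.82).

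On control chow Hamp2 was higher in NDKO than in NDWT, with no overlap (log2FC 1.33, SE 0.42, FDR 0.043). This call was lost in 7 of 11 other settings and in 10 of 20 fits that each left out a library, where its FDR ran from 0.0183 to 0.123. Without NDKO replicate 5, the highest of its group, it was among those lost. The diet call in wild type was lost under the median of ratios (log2FC 0.76, FDR 0.13) and quantile normalization (0.64, FDR 0.21). The gene was covered by 11 to 164 fragments a library, too few for fine differences to be detectable. The interaction was -1.42 (95% interval -2.67 to -0.17, FDR 0.26).

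**Figure D1:**
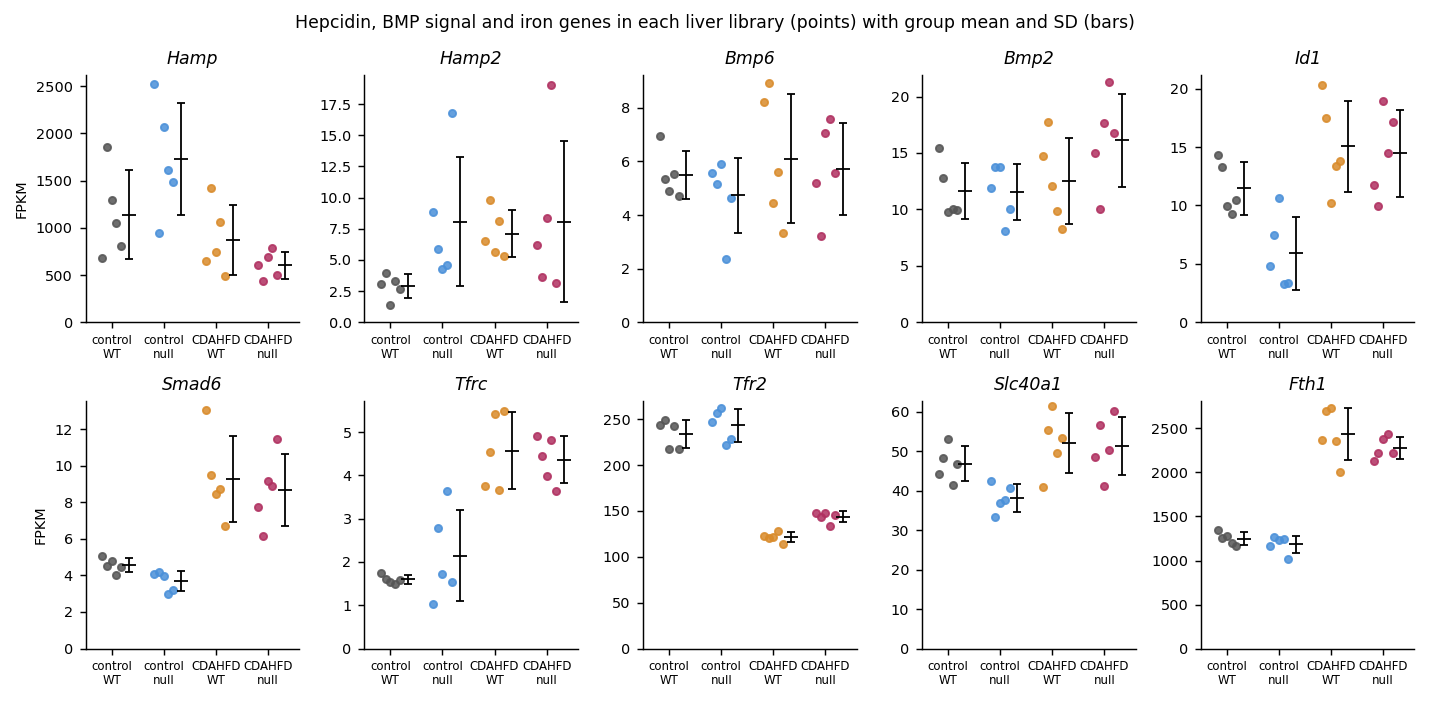
FPKM (vertical axes, linear, from 0) of the 10 genes in each of 20 liver libraries, by group (control or CDAHFD, WT or labelled TSP-1 null), as points with the group mean and SD as bars. Tfr2 falls and Fth1 rises with CDAHFD in both genotypes without overlap, while Hamp is lowest in the CDAHFD null group (442 to 785 FPKM) and Id1 in the control null group (3.29 to 10.7 FPKM).

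Neither endothelial ligand that induces hepcidin showed a change that passed the test. Bmp6, on chromosome 13, had group means of 4.73 to 6.10 FPKM, and its log2FC with diet was 0.07 (95% interval -0.51 to 0.65, FDR 0.83) in wild type and 0.28 (95% interval -0.30 to 0.86, FDR 0.37) in TSP-1 knockout mice. Bmp2, on chromosome 2, ranged over 9.80 to 15.4 FPKM (NDWT), 8.06 to 13.8 FPKM (NDKO), 8.30 to 17.7 FPKM (HFWT) and 9.999 to 21.3 FPKM (HFKO). All groups of both ligands overlapped. The Bmp2 log2FC with diet was 0.08 (95% interval -0.37 to 0.53, FDR 0.74) in wild type and 0.47 (95% interval 0.02 to 0.92, FDR 0.058) in TSP-1 knockout mice. Without HFKO replicate 2, the HFKO library lowest in Bmp2, the second of these passed the test (log2FC 0.63). Since the median gene rose by about as much as Bmp2 did, its relative value in TSP-1 knockout mice was -0.03. In wild type the relative values were -0.45 for Bmp2 and -0.46 for Bmp6. Under the median of ratios the wild type log2FC was -0.48 (FDR 0.043) for Bmp2 and -0.48 (FDR 0.12) for Bmp6. Under quantile normalization these were -0.36 (FDR 0.13) and -0.55 (FDR 0.082). In wild type both ligands thus changed sign with scaling, and neither was called. Bmp6 shares 194 of its 3869 distinct 31-base stretches with Txndc5 transcripts, so reads of this overlap may be split between the genes.

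Id1, a transcription regulator and the usual readout of hepatic BMP signalling, was lower in the knockout libraries on control chow. It stood at 9.24, 9.93, 10.5, 13.3 and 14.3 FPKM in NDWT and at 3.29, 3.37, 4.80, 7.44 and 10.7 FPKM in NDKO. Of the 5 NDKO libraries 4 lay under every NDWT library, and NDKO replicate 3 did not. The log2FC was -1.07 (SE 0.27, FDR 0.014), a level 2.10-fold lower. The call held in all 20 fits without a library, and was lost when only NDWT and NDKO entered the fit (FDR 0.0569). Id1 lies on chromosome 2, 34.6 Mb from Thbs1, and Bmp2 lies 15.4 Mb from it. Whether DNA around the targeted locus bears on either gene was not tested.

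With CDAHFD Id1 rose in the knockout mice and not, by the test, in wild type. It stood at 9.92, 11.8, 14.5, 17.1 and 19.0 FPKM in HFKO against the NDKO values above (log2FC 1.39, SE 0.27, FDR 1.6e-04). HFWT stood at 10.2, 13.4, 13.8, 17.5 and 20.3 FPKM, and the wild type log2FC was 0.37 (95% interval -0.20 to 0.95, FDR 0.23). The rise in knockout mice kept its call under both other scalings (0.86 and 0.91). On CDAHFD the genotypes were close (log2FC -0.06, 95% interval -0.63 to 0.52, FDR 0.94). The difference between the diet effects, 1.01 (95% interval 0.20 to 1.83, unadjusted p = 0.017, FDR 0.21), did not pass the correction.

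Smad6, an inhibitory SMAD that BMP signals induce as feedback, rose with CDAHFD in both genotypes. It stood at 4.00 to 5.08 FPKM in NDWT and 6.71 to 13.0 in HFWT (log2FC 0.98, SE 0.16, FDR 1.9e-05). In knockout mice it went from 2.99 to 4.16 FPKM up to 6.14 to 11.5 (log2FC 1.20, SE 0.16, FDR 1.8e-06). Neither pair of groups overlapped. The wild type call did not survive rescaling (0.43 and 0.41, under the fold threshold), and the knockout call did (0.67 and 0.62). By genotype Smad6 differed by -0.31 (FDR 0.22) on control chow and by -0.09 (FDR 0.80) on CDAHFD.

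**Figure D2:**
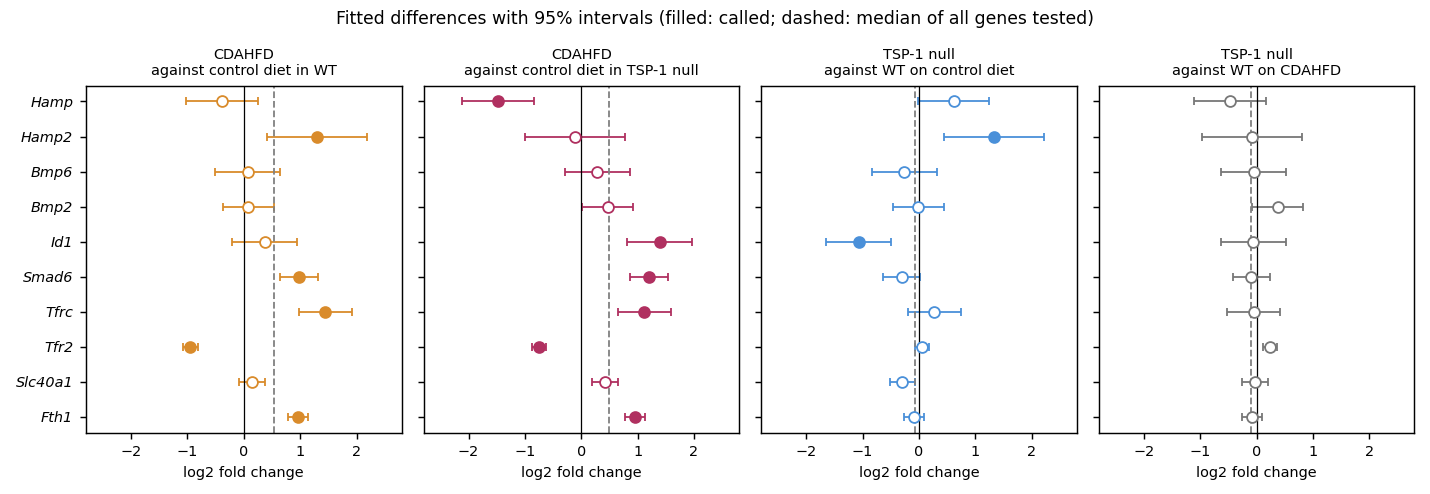
Fitted log2 fold changes (horizontal axes) of the 10 genes in 4 comparisons with 95% intervals as bars. Filled points passed FDR and fold thresholds, and the dashed line is the median of all 14524 genes tested (0.53 and 0.50 in the diet comparisons). With diet, the whole intervals of Hamp (WT -0.39, null -1.48) and Tfr2 (WT -0.95, null -0.76) lie to the left of this line. So does the WT interval of Slc40a1 (0.15). The WT values of Hamp and Slc40a1 were not called.

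Hamp and Id1 went in opposite directions with diet in knockout mice. Their ratio, and the ratios of Hamp over Smad6 and over Hamp2, were computed after the values of these genes were seen. The p-values of the ratios therefore describe differences already seen and add no support to the calls above. Hamp over Id1 had a median of 442 (range 128 to 525) in NDKO and 44.5 (28.9 to 54.2) in HFKO, a difference of -2.88 on the log2 scale (SE 0.44, exact permutation p = 0.0079, two-sided, adjusted over 12 ratio tests 0.032, lower in all 5). The smallest p that 5 against 5 allows is 0.0079. In wild type the medians were 114 and 72.8 (difference -0.76, exact permutation p = 0.11, adjusted 0.17). The ratio was 1.70 higher in NDKO than in NDWT on that scale (exact permutation p = 0.0238, adjusted 0.0571). Hamp over Smad6 fell with diet in both genotypes, with log2 differences of -1.38 in wild type (exact permutation p = 0.0159, adjusted 0.0476) and -2.70 in knockout mice (exact permutation p = 0.0079, adjusted 0.032). The log2 difference with diet of Hamp over Hamp2 was -1.73 in wild type (exact permutation p = 0.00794, adjusted 0.0317) and -1.36 in knockout mice (exact permutation p = 0.0476, adjusted 0.0816). By genotype the log2 difference of Hamp over Hamp2 was -0.75 on control chow (exact permutation p = 0.238, adjusted 0.286) and -0.38 on CDAHFD (exact permutation p = 0.341, adjusted 0.341). Multiplying a library by 1 factor leaves such a ratio as it is, which quantile normalization does not.

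The other SMADs and BMP targets were read from a list of 13 genes, all tested, that includes Hamp, Hamp2, Id1 and Smad6. On control chow 4 were lower in the knockout libraries, Id1, Id2, Id3 and Smad7, and 1, Hamp2, was higher. Id3, a partner of Id1 with the same kind of function, was 40.3 ± 19.7 FPKM in NDWT and 15.1 ± 5.18 in NDKO (log2FC -1.36, SE 0.26, FDR 0.0021), without overlap. Id2 was 125 ± 27.0 and 69.4 ± 16.1 FPKM (log2FC -0.86, FDR 0.0011), also without overlap, and Smad7, an inhibitory SMAD shared with TGF-β, 5.77 ± 1.39 and 3.45 ± 1.17 FPKM (log2FC -0.76, FDR 0.026). All 4 kept their call under both other scalings. Over all genes tested, 3.03% were called lower and 1.74% higher in this comparison, and of the 10 members 1 was lower (Id1) and 1 higher (Hamp2). Groups did not overlap for 1 member, Hamp2, against 9.03% of all genes tested.

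With CDAHFD 5 of the 13 were higher and none lower in wild type mice, and 7 were higher and 2 lower in knockout mice. Of all genes tested 44.1% (wild type) and 41.9% (knockout) were called higher, and 4.62% and 4% lower. The receptor SMAD genes rose in both genotypes: Smad5 by 0.92 (FDR 3.2e-09) and 0.84 (FDR 1.3e-08) and Smad1 by 0.76 (FDR 7.9e-07) and 0.65 (FDR 5.8e-06). Id4 rose by 0.69 (FDR 0.016) and 1.10 (FDR 4.81e-04), and Id3 by 1.22 (FDR 3.0e-04) and Smad7 by 1.02 (FDR 3.6e-04) in knockout mice. The 2 that fell in knockout mice were Hamp and Smad9, the latter named after its value was seen (log2FC -0.85, FDR 0.0167). Relative to the median gene the list's median was -0.16 in wild type and 0.16 in knockout mice, and rescaled by the median of ratios the counts became 0 higher and 3 lower, and 4 higher and 2 lower. Under quantile normalization they were 0 higher and 1 lower, and 3 higher and 2 lower. Of all 14524 genes tested, the median of ratios called 3299 higher and 2242 lower in wild type and 3225 and 1980 in knockout mice. With quantile normalization these were 2738 and 2359, and 2690 and 1993. The rescaled counts of the lists below are to be read against these, not against the shares of the main fit. Under quantile normalization Id4 in wild type (-0.09) and Smad1 in knockout mice (-0.03) changed sign. Id3 kept its call under both. On CDAHFD 0 of the 13 differed by genotype, and 0 passed the interaction.

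**Figure D3:**
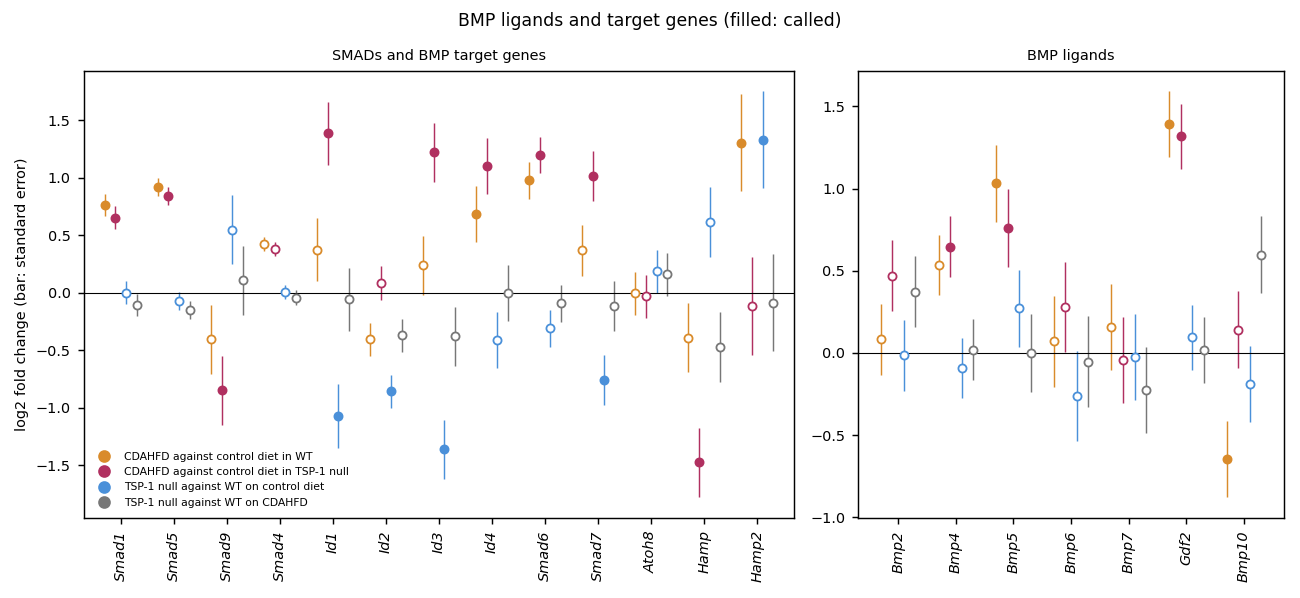
Log2 fold changes (vertical axes, bars are standard errors) of SMAD and BMP target genes and of BMP ligands in 4 comparisons, filled where called. Id1, Id2, Id3 and Smad7 lie at -0.76 to -1.36 for TSP-1 null against WT on control diet, and none of the 20 genes drawn is called by genotype on CDAHFD.

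Among 7 BMP ligands, all tested, Gdf2 (BMP9, made by stellate cells) rose with CDAHFD in both genotypes (log2FC 1.39, FDR 3.9e-06, and 1.32, FDR 8.4e-06) and kept its call under both other scalings. Bmp5 rose by 1.03 (FDR 6.2e-04) and 0.76 (FDR 0.0072), and Bmp4 by 0.65 (FDR 0.0038) in knockout mice. Neither Bmp4 nor Bmp5 kept its call when rescaled, and under quantile normalization both had the other sign in knockout mice (-0.20 and -0.01). Bmp10 fell in wild type (log2FC -0.65, FDR 0.018), and fell further when rescaled. That is 2 higher and 1 lower in wild type and 3 higher in knockout mice. Over all genes tested 44.1% and 41.9% were called higher, and 4.62% and 4% lower.

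Of 12 receptors and hepcidin co-receptors 11 were tested, and 3 rose and 1 fell in each genotype with diet. Of all genes tested 44.1% (wild type) and 41.9% (knockout) were called higher, and 4.62% and 4% lower. Acvrl1 (ALK1, an endothelial receptor) rose by 1.41 (FDR 2.0e-08) and 1.16 (FDR 3.3e-07), Acvr1 (ALK2) by 0.91 (FDR 1.2e-06) and 0.87 (FDR 2.5e-06) and endoglin (Eng) by 0.64 (FDR 0.0022) and 0.81 (FDR 3.0e-04). Of these 3 only Acvrl1 kept a call under the median of ratios. Of the whole list 1 was then higher and 2 lower in wild type and 1 and 1 in knockout mice, and under quantile normalization 1 and 3, and 0 and 3. Tfr2 was the gene that fell, and hemojuvelin, listed as Hfe2 at 55.3 to 63.2 FPKM in the group means, passed in no comparison. Of 11 inhibitors 6 were tested, and with diet 1 was called higher in wild type and 3 in knockout mice. Under the median of ratios 1 was higher and 1 lower in each genotype. Under quantile normalization 1 was higher and 2 lower in wild type, and 0 and 1 in knockout mice. Bambi, a decoy receptor, rose by 1.76 (FDR 7.0e-09) and 1.46 (FDR 1.0e-07), and Twsg1 rose in knockout mice (0.77, FDR 4.7e-07). Twsg1 lost its call under both other scalings (0.24 and 0.35), and Bambi in knockout mice under quantile normalization (0.576). Tmprss6, the hepatocyte protease that cleaves hemojuvelin, was not called. Its log2FC with diet in wild type was -0.36 (FDR 0.0020), which passed the FDR but not the fold threshold. Erythroferrone (listed as Fam132b), the erythroid hormone that lowers hepcidin, reached at most 8 fragments in a library and was not tested.

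Within groups the BMP ligands and the general targets moved together from mouse to mouse, and no pair that holds Hamp passed the test. Deviations of log2(FPKM + 0.1) from the group mean were correlated over 20 libraries for 15 pairs, with a permutation test within groups (two-sided) and Benjamini-Hochberg adjustment over the 15. Bmp6 and Bmp2 had Pearson r = 0.90 (permutation p = 3.0e-05, adjusted 4.5e-04) and Spearman rho = 0.87 (permutation p = 6.0e-05). Without the 2 libraries farthest from the median r was 0.87, and within the 10 libraries of each diet it was 0.84 and 0.93. Id1 followed Bmp2 (r = 0.70, rho = 0.71), Bmp6 (r = 0.67, rho = 0.67) and Smad6 (r = 0.68, rho = 0.77), and Smad6 followed Bmp6 (r = 0.76, rho = 0.68) and Bmp2 (r = 0.75, rho = 0.72). Without their own 2 farthest libraries r was 0.60 to 0.71 in these 5 pairs. The permutation p of r for them was 8.0e-04 to 0.0029 and that of rho 0.0011 to 0.0028, with adjusted values for r of 0.00499 to 0.00715. All 6 pairs passed in every alternative tried, with r between 0.59 and 0.92.

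For the 9 pairs that hold Hamp, the difference from the other pairs was not tested. Hamp and Id1 had r = 0.08 (rho = -0.03, permutation p = 0.77 and 0.90) and Hamp and Smad6 r = 0.12 (rho = 0.08, permutation p = 0.64 and 0.75). With Bmp6 r was 0.38 (rho = 0.33, permutation p = 0.14 and 0.21), and differed by diet: -0.01 over the 10 control libraries and 0.72 over the 10 CDAHFD libraries, a split not tested. With Bmp2 r was 0.30 (rho = 0.24, permutation p = 0.240 and 0.360), -0.13 on control chow and 0.67 on CDAHFD. With Hamp2 r was 0.37 (rho = 0.46, permutation p = 0.096 and 0.051), 0.03 on control chow and 0.71 on CDAHFD.

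**Figure D4:**
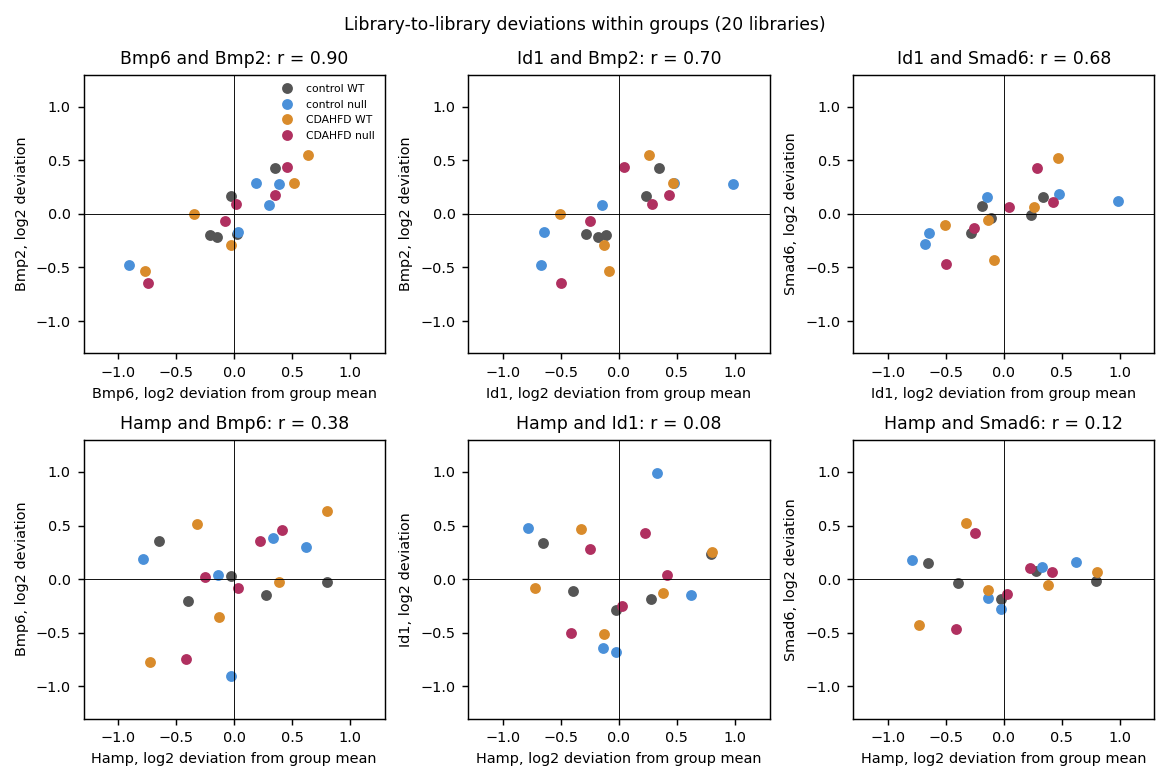
Deviation of each library from its group mean (both axes, log2(FPKM + 0.1)) for 6 pairs of genes in 20 libraries, coloured by group. The upper pairs rise together (r = 0.90, 0.70 and 0.68), and the lower pairs, which hold Hamp, scatter (r = 0.38, 0.08 and 0.12).

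Endothelial marker levels moved with the ligands and targets. The summed FPKM of 10 sinusoidal endothelial markers, all detected, correlated over the 20 deviations with Bmp6 (r = 0.81), Bmp2 (r = 0.77), Smad6 (r = 0.84) and Id1 (r = 0.53), against 0.31 for Hamp. The sum was 104 to 110.1 FPKM for NDWT libraries, 80.3 to 105 FPKM for NDKO, 95.7 to 137 FPKM for HFWT and 102 to 157 FPKM for HFKO. With diet 2 of the 10 markers rose in wild type and 4 in knockout mice, where 44.1% and 41.9% of all genes were called higher. This turned with scaling in wild type, where 0 were higher and 4 lower under both the median of ratios and quantile normalization, while in knockout mice 1 and 2 were higher and 0 lower. Other marker sums moved with some of these genes too, with no test. Over the same deviations the hepatocyte sum had r = -0.52 with Id1, -0.58 with Smad6, -0.25 with Bmp6 and -0.32 with Bmp2. The erythroid sum had r = -0.47 with Id1. The points share libraries, and in whole liver more cells of a type cannot be told apart from more RNA per cell. The part of this in the correlations was not tested. Among the genes whose deviations were most like Hamp's, with no p, were Slain1 (r = 0.75), Prpf40b (0.74), Xcl1 (0.74) and Gm11974 (0.73), and none of these is a member. For Id1 they were Tmbim6 (r = 0.87), Ubl3 (0.85), Zfp513 (0.85), Palm (0.85) and Obsl1 (0.85).

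Tfr2, the transferrin receptor that hepatocytes use to sense iron-loaded transferrin, fell in every CDAHFD library. It stood at 217, 218, 243, 243 and 249 FPKM in NDWT and at 114, 121, 121, 123 and 128 FPKM in HFWT. In knockout mice it went from 222, 228, 247, 257 and 263 FPKM to 134, 144, 146, 148 and 148 FPKM. The log2FC was -0.95 (SE 0.06, FDR 6.2e-11) and -0.76 (SE 0.06, FDR 1.6e-09), the smallest FDR of any member in each comparison. Relative to the median gene the falls were -1.48 and -1.26, and the call held in every alternative.

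On CDAHFD Tfr2 was also the member with the clearest genotype difference. All 5 HFKO libraries lay above all 5 HFWT libraries (log2FC 0.24, SE 0.06, FDR 0.053), a step of 1.18-fold that lies under the fold threshold. None of the 10 members was called higher or lower in this comparison, and 1, Tfr2, had an unadjusted p under 0.05. Of all genes tested 0.165% were called higher and 0.33% lower, and groups did not overlap for 4.98%. Rescaling by the median of ratios brought the Tfr2 FDR to 0.0087 at a log2FC of 0.34, still under the fold threshold.

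Tfrc, which carries transferrin iron into cells, rose. It stood at 1.498, 1.53, 1.59, 1.61 and 1.75 FPKM in NDWT and at 3.65, 3.75, 4.53, 5.43 and 5.50 FPKM in HFWT (log2FC 1.44, SE 0.23, FDR 1.1e-05). NDKO was more spread, at 1.03, 1.53, 1.73, 2.78 and 3.63 FPKM, and HFKO stood at 3.65, 3.99, 4.45, 4.82 and 4.91 FPKM (log2FC 1.12, SE 0.23, FDR 2.0e-04). Groups did not overlap in either genotype, though the highest NDKO library, replicate 4, lay just below the lowest HFKO library. Under quantile normalization the knockout value was 0.41 (FDR 0.14) and not called.

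Fth1, the ferroxidase chain of ferritin, was among the most abundant members with Hamp and rose by close to the same amount in both genotypes. It stood at 1163, 1195, 1259, 1281 and 1348 FPKM in NDWT and at 2007, 2362, 2373, 2697 and 2728 FPKM in HFWT (log2FC 0.96, SE 0.09, FDR 8.0e-09). In knockout mice it went from 1016 to 1263 FPKM up to 2133 to 2437 FPKM (log2FC 0.95, SE 0.09, FDR 1.0e-08). The difference between the 2 effects was -0.01 (95% interval -0.26 to 0.25). Scaling mattered to its size: 0.39 and 0.41 under the median of ratios, with FDR under the threshold but the fold not reached, and 1.38 and 1.44 under quantile normalization. Its transcripts share 116 of 3578 distinct 31-base stretches with 3 other genes, chiefly processed copies such as Gm6977.

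Slc40a1 (ferroportin) was called in no comparison. Its mean level was 46.8 ± 4.42 FPKM (NDWT), 38.2 ± 3.50 FPKM (NDKO), 52.1 ± 7.53 FPKM (HFWT) and 51.3 ± 7.43 FPKM (HFKO). The rise with CDAHFD in knockout mice passed the FDR (0.0020) but not the fold threshold (log2FC 0.42), and relative to the median gene it was -0.08. In wild type the log2FC was 0.15 (FDR 0.23). NDKO was lower than NDWT by 0.29 on the log2 scale (95% interval -0.52 to -0.07, FDR 0.083). Macrophages also make ferroportin, and within groups Slc40a1 followed the sum of 8 Kupffer cell and macrophage markers (r = 0.62 over 20 libraries, 0.74 on control chow and 0.56 on CDAHFD), a description with no test.

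Over the 10 members 4 were called higher (Hamp2, Smad6, Tfrc, Fth1) and 1 lower (Tfr2) with CDAHFD in wild type mice, where 44.1% of all genes tested were called higher and 4.62% lower. In knockout mice 4 were higher (Id1, Smad6, Tfrc, Fth1) and 2 lower (Hamp, Tfr2), against 41.9% and 4% of all genes. Groups did not overlap for 5 members in each genotype, against 56.2% and 57.8% of all genes. The share of members called higher thus lay near or under the background. The median log2FC of the members was 0.26 and 0.44, or -0.27 and -0.05 relative to all genes. No member passed the interaction at an FDR of 0.05 by limma, where 0.337% of genes were called higher and 0.31% lower, and 4 members (Hamp, Hamp2, Id1 and Tfr2) had an unadjusted p under 0.05. Each group enters both a diet and a genotype comparison, so these share libraries.

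The wider iron transport list held 19 genes, of which 17 were tested. With CDAHFD 10 rose and 1 fell in wild type, and 11 rose and 1 fell in knockout mice. Of all genes tested 44.1% (wild type) and 41.9% (knockout) were called higher, and 4.62% and 4% lower. Under the median of ratios 6 of the 17 were higher and 3 lower in wild type and 7 higher and 1 lower in knockout mice. With quantile normalization these were 9 and 3, and 10 and 2. Lcn2 (lipocalin 2, which binds bacterial siderophores and is induced in inflammation) rose the most, by 4.87 (FDR 7.6e-10) and 5.34 (FDR 2.7e-10). Steap2, a ferrireductase, rose by 1.90 (FDR 1.1e-09) and 2.17 (FDR 2.2e-10), and Slc11a2 (DMT1, which moves iron out of endosomes) by 1.18 (FDR 1.84e-08) and 1.60 (FDR 3.55e-10). Cd163, the macrophage receptor for haptoglobin bound to hemoglobin, fell (log2FC -4.79, FDR 8.4e-13, and -4.27, FDR 4.4e-12), beside the Kupffer cell markers Clec4f (-1.22 and -0.77) and Timd4 (-3.52 and -3.13). These directions held under both other scalings. Of the 8 Kupffer cell and macrophage markers 2 fell in each genotype, while 4 rose in wild type and 5 in knockout mice.

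Slc25a37 (mitoferrin 1, which brings iron into mitochondria) was the gene of this list called by genotype. It was 4.86 ± 0.578 FPKM in NDWT and 2.98 ± 0.143 in NDKO (log2FC -0.68, SE 0.07, FDR 1.8e-05), and 8.36 ± 0.399 and 7.80 ± 0.402 FPKM in HFWT and HFKO. It rose with diet by 0.78 in wild type and by 1.36 (FDR 1.4e-11) in knockout mice, and the interaction passed the test (0.58, FDR 0.015). Under quantile normalization the genotype difference (-0.57) and the interaction (0.56) fell just under the fold threshold. By genotype on control chow Slc11a2 (log2FC -0.43, FDR 0.017) and Slc25a28 (0.31, FDR 0.049) passed the FDR but not the fold threshold. Slc25a28 was named after its value was seen.

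Iron storage and sensing had 8 genes, all tested, and 2 rose in each genotype, Fth1 and Fbxl5 (1.08, FDR 4.8e-08, and 0.94, FDR 3.2e-07), the iron-sensing subunit of the ligase that removes iron regulatory protein 2. Under the median of ratios 0 of the 8 were higher and 2 lower in each genotype, and under quantile normalization 2 and 1. Fbxl5 lost its call under both other scalings (0.22 to 0.53). Heme synthesis and breakdown had 16 genes, all tested, of which 7 rose and 1 fell in wild type and 6 rose and 0 fell in knockout mice. Of all genes tested 44.1% (wild type) and 41.9% (knockout) were called higher, and 4.62% and 4% lower. Under the median of ratios 4 of the 16 were higher and 3 lower in wild type and 3 higher and 3 lower in knockout mice. With quantile normalization these were 5 and 2, and 5 and 1. Hmox1 (heme oxygenase 1, which frees iron from heme) rose by 1.71 (FDR 1.2e-08) and 1.70 (FDR 1.6e-08), the heme exporter Flvcr1 (listed as Mfsd7b) by 2.05 (FDR 1.3e-08) and 1.96 (FDR 2.7e-08), and the lysosomal heme transporter Slc48a1 by 1.23 (FDR 4.1e-10) and 1.05 (FDR 4.5e-09). Blvra, a biliverdin reductase, rose by 1.28 (FDR 3.57e-08) and 1.29 (FDR 4.01e-08), and Hmox2 by 0.70 (FDR 2.55e-08) in wild type. Hmox2 lost its call under both other scalings (0.14 and 0.32), and Slc48a1 in knockout mice under the median of ratios (0.51). The gene that fell in wild type was Alas2 (-0.71, FDR 4.13e-05), the erythroid enzyme of heme synthesis, named after its value was seen.

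**Figure D5:**
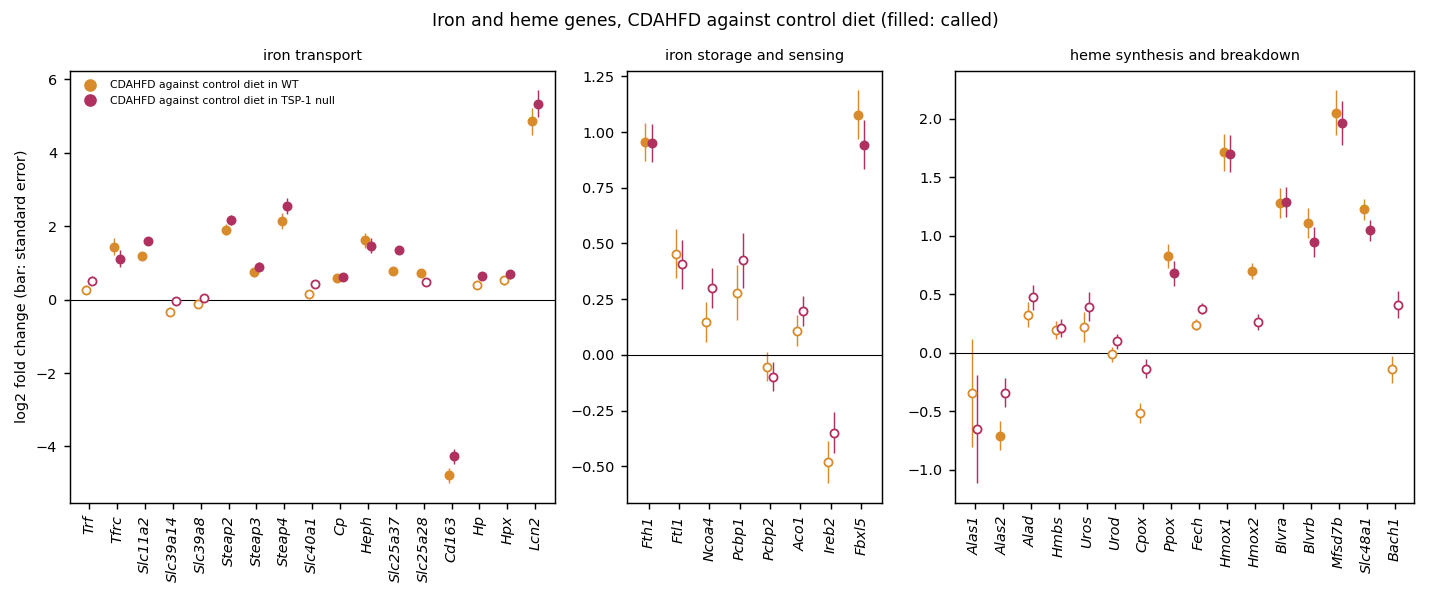
Log2 fold changes with CDAHFD (vertical axes, bars are standard errors) of the tested genes for iron transport, storage and heme handling in WT and TSP-1 null mice, filled where called. Lcn2 (4.87 and 5.34) and Cd163 (-4.79 and -4.27) lie farthest from 0, and the genotypes lie close to each other for most genes.

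Of the 10 genes of interleukin 6 input to hepcidin 9 were tested, since Il6 reached at most 3 fragments in a library. With diet 3 rose and 1 fell in wild type: Jak2 (0.94, FDR 2.1e-08), Il6ra (0.59, FDR 0.0013), Socs3 (0.84, FDR 0.0057) and fibrinogen beta, Fgb (-0.73, FDR 2.3e-06). In knockout mice 2 rose, Jak2 (1.22, FDR 7.6e-10) and Socs3 (0.85, FDR 0.0053). Of these 6 calls 2 held under the median of ratios, Fgb in wild type and Jak2 in knockout mice, and none under quantile normalization. Over all genes tested 44.1% (wild type) and 41.9% (knockout) were called higher with diet, and 4.62% and 4% lower. On control chow Il6ra, the interleukin 6 receptor, was 16.7 ± 2.67 FPKM in NDKO and 9.76 ± 2.75 in NDWT (log2FC 0.80, FDR 0.0019), and kept its call under both scalings. Saa1 and Saa2, acute phase genes of hepatocytes, were called in no comparison.

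Other cell types moved with the diet. All 7 stellate cell and myofibroblast, all 5 cholangiocyte and all 6 T and B cell markers rose in both genotypes. Of all genes tested 44.1% (wild type) and 41.9% (knockout) were called higher with diet, and 4.62% and 4% lower. Under the median of ratios 6 (wild type) and 5 (knockout) stellate and 5 and 3 T and B cell markers were called higher, under quantile normalization 6 and 5, and 3 and 1, and under both all 5 cholangiocyte markers were. Their sums went from 11.3 to 16.7 up to 99.6 to 245 FPKM, from 12.4 to 18.0 up to 181 to 488 FPKM, and from 1.43 to 4.14 up to 5.51 to 12.8 FPKM, from control chow to CDAHFD over both genotypes. Of 8 Kupffer cell and macrophage markers 4 rose and 2 fell in wild type and 5 rose and 2 fell in knockout mice, with sums of 152 to 258 FPKM on control chow and 240 to 522 FPKM on CDAHFD. The defining hepatocyte markers were abundant in every library, as the label liver requires, with sums of 25584 to 45084 FPKM. None of 7 rose, and 2 fell in each genotype: Serpina1a and Tat in wild type and Cps1 and Tat in knockout mice. Under the median of ratios 7 were lower in wild type and 5 in knockout mice, and under quantile normalization 0 and 1. Of all 14524 genes tested 2242 and 1980 were lower under the median of ratios, and 2359 and 1993 under quantile normalization. Cps1 was also higher in NDKO than in NDWT (log2FC 1.10, FDR 9.49e-04), and of the stellate markers Acta2 was lower there. Of 8 erythroid markers, whose sum ran from 104 to 339 FPKM, Slc4a1 and Epb4.2 were too low to test (at most 13 fragments), and Hba-a1 (-0.59) and Hbb-bs (-0.70) fell with diet in knockout mice, where Hamp fell. Of the 5 erythroid markers tested, 3 were lower in wild type and 5 in knockout mice under the median of ratios, and 2 and 5 under quantile normalization. The part of any of these in the members' values was not tested.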

How the data were processed

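Liver RNA of 20 mouse libraries was sequenced. Per the labels, the authors aligned reads with STAR 2.5.2 and counted them with featureCounts (Subread 1.5.1), and the deposited table holds FPKM per gene and library. The labels name the build GRCh38, but the coordinates are those of mouse GRCm38. All value columns were matched to a sample, with 0 left unused.

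The 14524 genes over 0.5 FPKM in 5 libraries or more were tested on log2(FPKM + 0.1) with limma 3.58.1 in R 4.3.3 (empirical Bayes with trend, 4 group means in 1 fit, two-sided), so a fold change understates that of low genes. A gene was called at a Benjamini-Hochberg FDR under 0.05 over all genes tested and an absolute log2 fold change (log2FC) above 0.58. Scripts were tested on simulated data. Fragments were computed from FPKM, gene length and depth, and depth was 15641549 to 23276326 fragments. The intervals given with a log2FC come from the limma fit and its SE, which rests on the spread between libraries of a group. Within-group correlations used 100000 permutations, and ratios an exact permutation test over 252 arrangements.

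The members and gene lists were chosen with earlier results of these data known. Named were all members, the targeted gene, up to 4 called genes with the lowest FDR per list and comparison, list genes called by genotype or interaction, and the 5 genes most like Hamp and Id1; some genes that this rule names are not reported here. Genes outside this rule are said to have been named after their values were seen. Alternatives were other pseudocounts, filters, scalings, variance settings, a replicate block and leaving out each library. Promoters came from RefSeq and untranslated regions from GENCODE M21.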

Additional observations from a re-analysis of the deposited data

Results flagged for a closer look

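In groups of 5 libraries, 44 combinations of gene and group were checked for a library far from the others, and 2 had one, where chance gives about 1 in 20. Tfr2 in HFKO replicate 4 was the lowest of its group at 134 FPKM, the nearest other library being at 144 FPKM. Thbs1 in HFKO replicate 5 was the highest of its group at 4.40 FPKM, the nearest being at 3.32 FPKM.

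The interaction test of limma, the difference of the diet's log2FC between genotypes, passed the FDR and the fold threshold for 3 genes named here. The difference was 0.58 (FDR 0.0146) for Slc25a37, -1.28 (FDR 0.0258) for the macrophage marker Trem2 and -2.66 (FDR 0.00230) for Thbs1. For Hmox2 it passed the FDR (0.0375) but not the fold threshold (-0.44). Thbs1 rose by 4.03 with CDAHFD in wild type and by 1.36 in the libraries labelled TSP-1 knockout. What lies behind these differences was not tested.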

How the results depend on the processing

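Of the 10 members, 5 were called with CDAHFD in wild type mice, and 3 under the median of ratios (1 higher, 2 lower) as well as 3 under quantile normalization (2 higher, 1 lower). In knockout mice 6 were called, and 5 to 7 under the alternatives. By genotype on control chow 2 were called, 1 (Id1) under a pseudocount of 1, no filter on low values, quantile normalization, eBayes without trend, robust eBayes and the replicate block, and 0 when only the groups compared were fitted. On CDAHFD and for the interaction the count was 0 under every alternative run. Leaving out 1 library gave 5 to 5, 6 to 7, 1 to 2, 0 to 0 and 0 to 0 calls in the 5 comparisons, and 6 to 6 correlated pairs. The 10 libraries whose omission lost Hamp2 were NDWT replicates 1, 3, 4 and 5, NDKO 1, 2 and 5, HFWT 3 and HFKO 1 and 3. No member's called direction reversed.

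The replicate block gave 5, 6, 1, 0 and 0 calls. Same-numbered libraries correlated at -0.133 to 0.0807, with 0 of 5 pairs over 0.1 in any comparison, and 2, 1, 4 and 1 of 10 libraries correlated best with their own number, so the numbers were not taken as pairs.

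Over all genes, calls higher and lower in wild type were 6412 and 671, 3299 and 2242 under the median of ratios, and 2738 and 2359 under quantile normalization. In knockout mice they were 6088 and 581, 3225 and 1980, and 2690 and 1993. By genotype on control chow they were 253 and 440, 348 and 329, and 270 and 281, and on CDAHFD 24 and 48, 38 and 27, and 56 and 36. The interaction gave 49 and 45, 82 and 57, and 64 and 41. The cause of these shifts was not tested. Depth limits Hamp2 most, at 11 to 164 fragments.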
